A study of Mus musculus with 6 samples.

Results

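The TNF ligand and receptor superfamilies were described in the infarcted hearts of wild-type (WT) and TSLP receptor knockout mice. Members were the protein-coding genes of the expression table whose symbol follows the *Tnfsf* and *Tnfrsf* naming, together with *Tnf*, *Lta*, *Ltb*, *Ltbr*, *Cd40*, *Cd40lg*, *Cd27*, *Cd70*, *Fas*, *Fasl*, *Eda2r* and *Ngfr*. This rule found 43 of the 54532 listed genes, 17 of them ligands and 26 receptors. It used names only and no measured value.

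RNA from peri-infarcted and infarcted tissue was sequenced on day 7 after permanent ligation of the left anterior descending coronary artery, the operation that produces myocardial infarction (MI) in these mice. All 6 mice underwent it, so there was no sham group: 3 were WT and 3 were *Crlf2*-/-, both C57BL/6 by the labels and C57BL/6J by the methods, with 1 library per mouse. *Crlf2* encodes TSLPR, the receptor chain that binds the cytokine TSLP, and the methods limit the knockout to no cell type. The study bought young adult male C57BL/6J mice from 1 supplier and had the knockout line made by another. The methods do not say whether the sequenced WT mice were bought or bred with the knockout line. If they were bought, genotype and supplier cannot be told apart.

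Libraries held 18508646 to 19682428 fragments on the genes of the table. Values are FPKM, which divide a gene's fragments by its length and by the library total, so that levels can be compared between genes. *Crlf2* itself was measured at 26.6, 25.1 and 21.6 FPKM in WT and at 13.2, 18.7 and 19.8 FPKM in *Crlf2*-/- mice. The groups did not overlap, but the knockout mean was still 70.4% of the WT mean, and gene totals do not show whether these fragments come from the deleted part of the gene. The difference did not pass the test after adjustment (limma, log2 fold change -0.52, Benjamini-Hochberg adjusted p = 0.521). Genes that define heart muscle were abundant in all libraries, and the summed level of 10 cardiomyocyte markers ranged from 1307 to 2369 FPKM in WT and from 892 to 1651 FPKM in *Crlf2*-/- hearts.

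TNF superfamily ligands are made as membrane proteins that form trimers, act on neighbouring cells or are shed, and bind receptors with cysteine-rich repeats. The receptors recruit TRAF adaptors, which lead to NF-kB and kinase signalling, and those with a death domain can also start caspase-dependent death. In the infarcted heart TNF is a product of infiltrating myeloid cells, TNFR1 sits on nearly all cell types, and the costimulatory pairs mainly serve the contact between T cells and antigen-presenting cells.

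Most members were measurable, and receptors were far more abundant than ligands. The summed level of the 26 receptors was 208 to 225 FPKM in WT and 215 to 244 FPKM in *Crlf2*-/- hearts. The 17 ligands together gave 25.3 to 32.8 FPKM in WT and 25.1 to 26.6 FPKM in *Crlf2*-/- hearts. Ranges of both groups overlapped for either sum. Of the 43 members, 6 had a mean over all libraries above 10 FPKM, 16 lay between 1 and 10 FPKM and 21 lay below 1 FPKM. A mean above 1 FPKM was reached by 17 receptors and by 5 ligands. The range of levels ran from *Cd70* at 0.0175 FPKM to *Tnfrsf1a* at 61.8 FPKM.

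**Figure D1:**
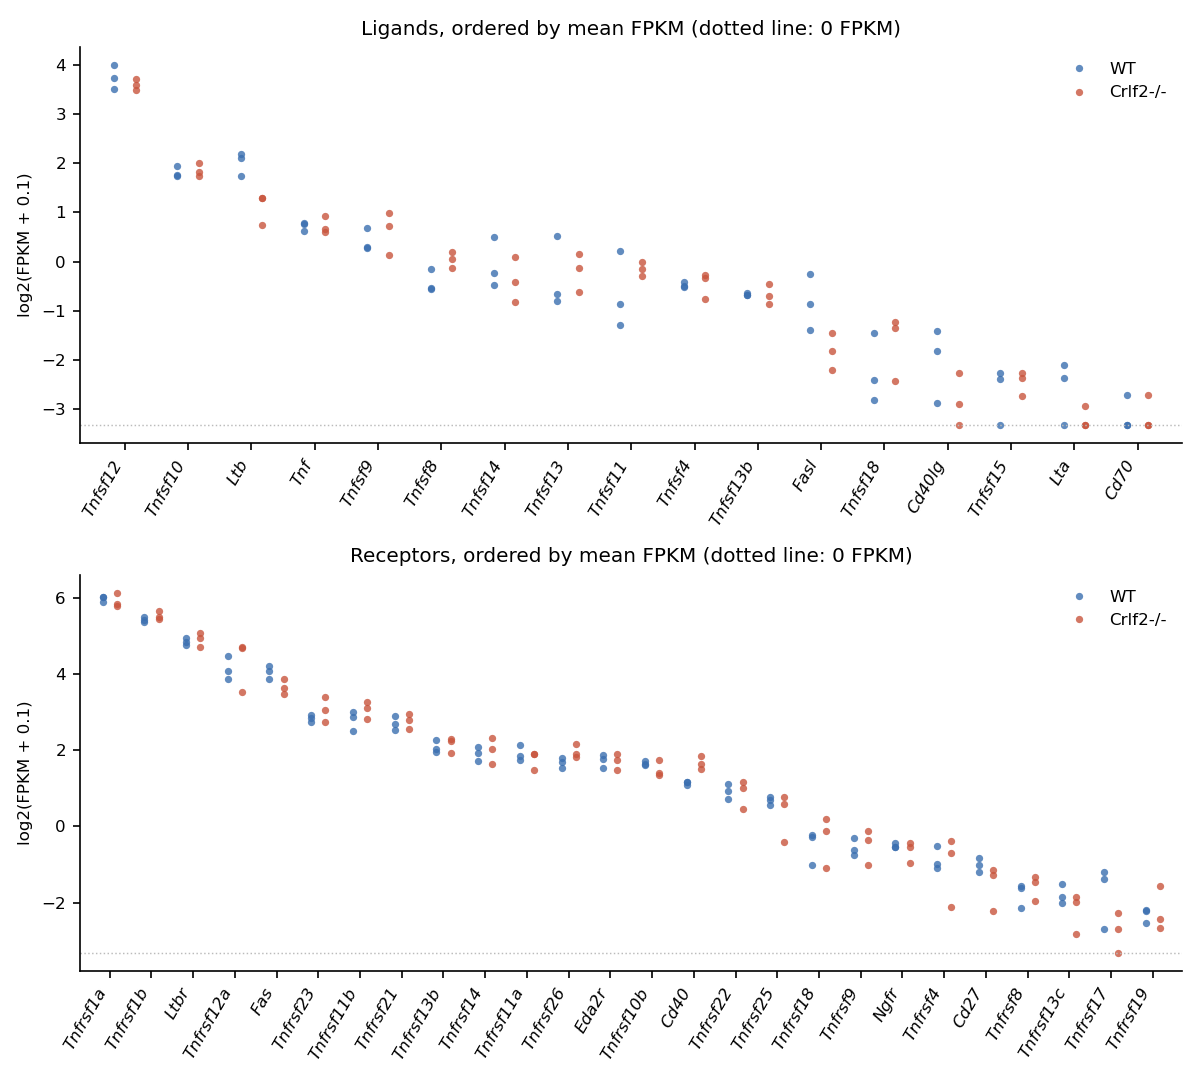
Level of each member in each library, as log2(FPKM + 0.1), with ligands above and receptors below; blue points are the 3 WT and red points the 3 *Crlf2*-/- libraries. *Tnfrsf1a*, *Tnfrsf1b*, *Ltbr*, *Tnfrsf12a*, *Fas* and *Tnfsf12* are the 6 members with a mean above 10 FPKM, and blue and red points overlap for most members.

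No member was called as different between the groups after adjustment. The test was limma on log2(FPKM + 0.1), where the added 0.1 shrinks the fold change of low genes, and calls required an adjusted p (Benjamini-Hochberg) no higher than 0.05 and a log2 fold change of 0.5 or more in either direction. Only genes with 10 or more fragments in 3 or more libraries were tested, which left 37 members (13 ligands and 24 receptors). Over all genes tested 2 of 15520 were called, which is 0.0129%, and over the members 0 of 37. Even large differences were not called by this test. The plasma cell marker *Jchain* had a knockout mean of 6.50% of the WT mean (limma, adjusted p = 0.109). The study's DESeq2 analysis of these hearts used the same cut-offs and reported more genes, *Lck* and *Cd3e* among them. A result of 0 calls therefore does not show that levels were equal. An unadjusted p under 0.05 was reached by 1 member that was higher in *Crlf2*-/- hearts (*Cd40*) and by 3 that were lower (*Ltb*, *Fasl* and *Fas*). That is 2.7% of the tested members beside 3.22% of all genes for the higher direction, and 8.11% beside 3.36% for the lower one. The share of higher members was therefore no larger than over all genes, and the share of lower ones rests on 3 genes. Of these, *Fasl* passed the filter through the WT libraries, where it was higher. With 10 or more fragments required in every library, *Fasl* was not tested and 2 lower members remained.

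After scaling between libraries the groups did not overlap for 3 members in each direction, 8.11% of those tested. They were *Cd40*, *Tnfsf8* and *Tnfrsf26* on the higher side, where 5.37% of all genes lay, and *Ltb*, *Fasl* and *Fas* on the lower side, where 6.37% lay. For a single gene, 3 against 3 libraries cannot give an exact two-sided permutation p below 0.1, and each of these 6 genes reached that value. The median log2 fold change was 0.02 over the tested ligands and 0.06 over the tested receptors, beside -0.0042 over all genes. The standard error of a member's log2 fold change had a median of 0.20 and ranged from 0.11 to 0.44. For 28 of the 37 members the 95% interval lay within a log2 fold change of 1 in either direction, so that for those a change of that size was outside the interval.

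**Figure D2:**
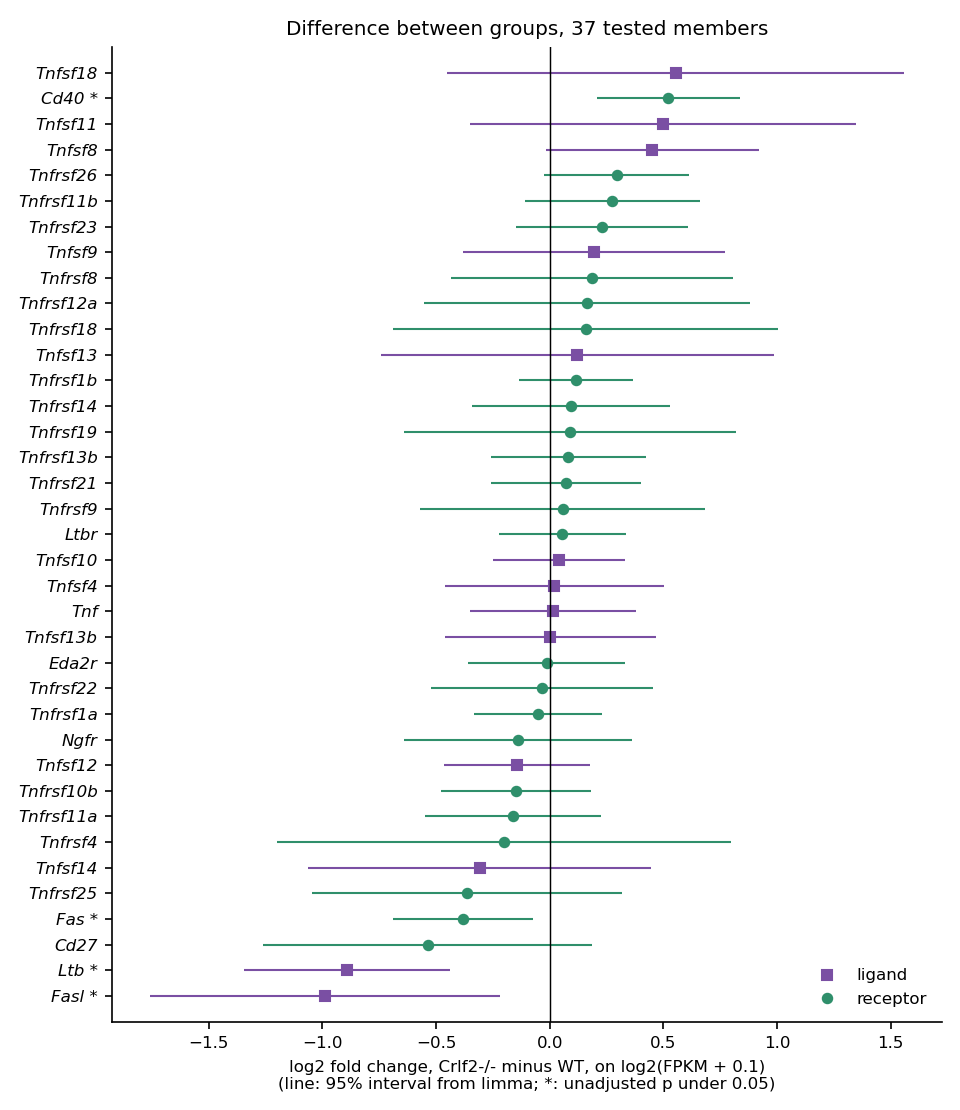
log2 fold change of the 37 tested members (*Crlf2*-/- minus WT, on log2(FPKM + 0.1)) with 95% intervals from limma, ligands as squares and receptors as circles. Only the intervals of *Cd40*, *Fas*, *Ltb* and *Fasl*, marked with a star, leave out 0, and none of these 4 passed adjustment over all genes.

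Among the inflammatory ligands, *Ltb* had the smallest p and *Tnf* hardly differed. *Ltb* (ENSMUSG00000024399, chr17:35194439-35196320, plus strand) encodes lymphotoxin beta, which forms a trimer with lymphotoxin alpha on lymphocytes and signals through the lymphotoxin beta receptor. Its level was 4.21, 4.48 and 3.23 FPKM in WT and 2.35, 1.58 and 2.37 FPKM in *Crlf2*-/- hearts, from 56 to 147 fragments per library. All 3 knockout values lay below the lowest WT value, and the knockout mean was 52.9% of the WT mean. On the log2 scale the difference was -0.89, with a standard error of 0.20 and a 95% interval from -1.35 to -0.44. The unadjusted limma p was 0.00186 and the adjusted p over all genes 0.254, the lowest adjusted p of any member. Over the alternatives tried, the adjusted p of *Ltb* ranged from 0.173 to 0.786.

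*Tnf* (ENSMUSG00000024401, chr17:35199381-35202007, minus strand) encodes TNF, the founding ligand. Its level was 1.43, 1.61 and 1.62 FPKM in WT and 1.82, 1.41 and 1.49 FPKM in *Crlf2*-/- hearts. The highest and the lowest of the 6 values were both knockout libraries. Its log2 fold change was 0.02, with a 95% interval from -0.35 to 0.38. *Tnfsf14*, which encodes LIGHT, a ligand shared by the lymphotoxin beta receptor and HVEM, averaged 0.895 ± 0.371 FPKM in WT and 0.696 ± 0.259 FPKM in *Crlf2*-/- hearts (SD, n = 3 each). *Lta*, which encodes lymphotoxin alpha, had counts of 3, 4 and 0 fragments in the WT libraries against 0, 1 and 0 in the *Crlf2*-/- ones and was too low to test.

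*Ltb*, *Tnf* and *Lta* are neighbours on chromosome 17. The gap is 3.06 kb between *Ltb* and *Tnf* and 1.16 kb between *Tnf* and *Lta*. The 250 bases before the RefSeq start of *Ltb* and of *Tnf* (GRCm38.p6) are shown because these adjacent ligands gave the largest and the smallest difference of the tested inflammatory ligands. The *Ltb* window is chr17:35194257-35194506 on the plus strand and the *Tnf* window is chr17:35202008-35202257 on the minus strand, each written 5′ to 3′ along its gene. Capitals mark a match of 10 bases to the NF-kB consensus, searched on both strands.
Ltb: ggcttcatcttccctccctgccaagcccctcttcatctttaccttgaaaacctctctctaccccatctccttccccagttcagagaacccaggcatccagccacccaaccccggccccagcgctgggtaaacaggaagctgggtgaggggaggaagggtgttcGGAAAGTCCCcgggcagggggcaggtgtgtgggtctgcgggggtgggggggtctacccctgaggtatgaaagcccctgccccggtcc
Tnf: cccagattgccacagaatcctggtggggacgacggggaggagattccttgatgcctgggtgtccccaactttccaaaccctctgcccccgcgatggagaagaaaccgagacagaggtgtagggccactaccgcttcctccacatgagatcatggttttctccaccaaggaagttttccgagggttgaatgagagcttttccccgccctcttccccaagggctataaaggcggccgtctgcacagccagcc
The match in the *Ltb* window lies on the opposite strand, 87 to 78 bases before the start, and the *Tnf* window holds none. RefSeq windows were at hand for 33 of the 43 members, 37 windows in all. A match was found in 3 of them (*Ltb*, *Tnfrsf8* and *Tnfrsf9*), which is 8.11%, beside 3.9% of all 32851 windows of the same length. A match is only a description of these letters.

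The genes of TNFR1, TNFR2 and the lymphotoxin beta receptor were the 3 most abundant members, and their groups overlapped. *Tnfrsf1a* encodes TNFR1, the widely expressed death domain receptor of TNF. Its level was 64.6, 64.9 and 58.9 FPKM in WT and 55.1, 69.7 and 57.3 FPKM in *Crlf2*-/- hearts (log2 fold change -0.05, 95% interval from -0.33 to 0.23). *Tnfrsf1b* encodes TNFR2, which lacks a death domain and is frequent on leukocytes and endothelium. It was measured at 45.0, 41.0 and 42.5 FPKM in WT and at 50.5, 45.2 and 43.1 FPKM in *Crlf2*-/- hearts (log2 fold change 0.11, 95% interval from -0.14 to 0.37). For both receptors the interval leaves out a log2 fold change of 0.5 in either direction. 

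*Ltbr*, the receptor of lymphotoxin beta on stromal and myeloid cells, stood at 30.6, 28.7 and 26.9 FPKM in WT and at 25.9, 33.5 and 30.5 FPKM in *Crlf2*-/- hearts. The knockout libraries held both the lowest and the highest value, and the 95% interval of the log2 fold change was -0.22 to 0.34 around 0.06. The ligand with the lowest adjusted p was thus paired with a receptor whose groups overlapped fully. *Tnfrsf14*, which encodes HVEM, averaged 3.67 ± 0.465 FPKM in WT and 3.96 ± 0.940 FPKM in *Crlf2*-/- hearts (SD, n = 3 each).

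Of the death ligands and receptors, the pair *Fasl* and *Fas* was lower in *Crlf2*-/- hearts on the unadjusted test. *Fasl* (ENSMUSG00000000817, chr1:161780689-161788495, minus strand) encodes Fas ligand, made mainly by activated T cells and NK cells. Its level was 0.448, 0.739 and 0.283 FPKM in WT and 0.116, 0.266 and 0.183 FPKM in *Crlf2*-/- hearts. The groups did not overlap, but these levels rest on only 20, 31 and 12 fragments in the WT libraries and on 5, 12 and 8 in the others. Its log2 fold change was -0.99 with a standard error of 0.33 and a 95% interval from -1.76 to -0.22, and its limma p was 0.0178 unadjusted and 0.561 adjusted. At such low levels the added constant matters, and the log2 fold change was -0.32 with a pseudocount of 1 and -1.30 with 0.01.

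*Fas* (ENSMUSG00000024778, chr19:34290659-34327770, plus strand) encodes the death receptor of Fas ligand and was among the more abundant members. It was measured at 16.6, 18.4 and 14.6 FPKM in WT and at 12.4, 14.6 and 11.0 FPKM in *Crlf2*-/- hearts. The lowest WT and the highest knockout value are practically the same, and they changed order with the scaling: the groups overlap in the deposited FPKM and lie just apart after scaling. The knockout mean was 76.6% of the WT mean. The log2 fold change was -0.38 with a standard error of 0.13 and a 95% interval from -0.69 to -0.07 (limma, unadjusted p = 0.0217, adjusted p = 0.615). The unadjusted p of *Fas* was over 0.05 when WT replicate 1, WT replicate 2 or *Crlf2*-/- replicate 3 was left out, and that of *Fasl* when WT replicate 2 or *Crlf2*-/- replicate 1 was. Those p-values reached at most 0.0858 for *Fas* and 0.0635 for *Fasl*.

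For TRAIL, its receptors and DR6 the 95% interval of the difference included 0. *Tnfsf10*, which encodes the death ligand TRAIL, was measured at 3.27, 3.28 and 3.73 FPKM in WT and at 3.90, 3.22 and 3.45 FPKM in *Crlf2*-/- hearts. The groups overlapped, with a log2 fold change of 0.04 and a 95% interval from -0.25 to 0.33. *Tnfrsf10b*, the death-inducing TRAIL receptor of the mouse, averaged 3.05 ± 0.147 FPKM in WT and 2.75 ± 0.453 FPKM in *Crlf2*-/- hearts (SD, n = 3 each). The decoy receptor gene *Tnfrsf23* averaged 7.06 ± 0.441 and 8.41 ± 1.93 FPKM, and *Tnfrsf22* 1.80 ± 0.256 and 1.78 ± 0.454 FPKM, in the same order. *Tnfrsf21*, which encodes the death domain receptor DR6, averaged 6.46 ± 0.827 and 6.77 ± 0.912 FPKM. Without *Crlf2*-/- replicate 3, *Tnfrsf23* had a log2 fold change of 0.39 in place of 0.23 and an unadjusted limma p of 0.0298 (adjusted p = 0.640).

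*Cd40* was the only member with an unadjusted p under 0.05 that was higher in *Crlf2*-/- hearts. It (ENSMUSG00000017652, chr2:165055627-165072948, plus strand) encodes CD40, the costimulatory receptor on B cells, dendritic cells and macrophages that receives help from T cells through CD40L. Its level was 2.14, 2.02 and 2.15 FPKM in WT and 3.47, 2.73 and 3.01 FPKM in *Crlf2*-/- hearts, from 149 to 262 fragments per library. The WT values lay close together and all knockout values lay above them, with a knockout mean at 146% of the WT mean. The log2 fold change was 0.52 with a standard error of 0.14 and a 95% interval from 0.21 to 0.84 (limma, unadjusted p = 0.00494, adjusted p = 0.355). Over the alternatives tried, the adjusted p of *Cd40* ranged from 0.351 to 0.952. Its ligand gene *Cd40lg*, expressed by activated CD4+ T cells, had counts of 8, 5 and 1 fragments in the WT libraries against 0, 1 and 3 in the *Crlf2*-/- ones, below the filter, so that the pair can be compared on the receptor side only.

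Among the other costimulatory genes, *Tnfsf8* and, outside that class, *Tnfrsf26* had groups that did not overlap. *Tnfsf8*, which encodes the ligand of CD30, stood at 0.593, 0.582 and 0.805 FPKM in WT and at 0.817, 1.05 and 0.932 FPKM in *Crlf2*-/- hearts. The highest WT and the lowest knockout library nearly touched. For *Tnfsf8* the log2 fold change was 0.45 with a standard error of 0.20 (limma, adjusted p = 0.791). *Tnfrsf26*, a mouse receptor gene beside the decoy TRAIL receptor genes on chromosome 7, stood at 3.36, 2.78 and 3.13 FPKM in WT and at 3.66, 4.36 and 3.42 FPKM in *Crlf2*-/- hearts. Here too the groups were separated by a small gap, and the log2 fold change was 0.29 with a standard error of 0.14 (limma, adjusted p = 0.807). *Tnfrsf22* lies 6.08 kb from *Tnfrsf26* and *Tnfrsf23* a further 16.15 kb away, and the groups of both overlapped. These 3 receptor genes are close relatives that the fragment counting may have split imperfectly.

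**Figure D3:**
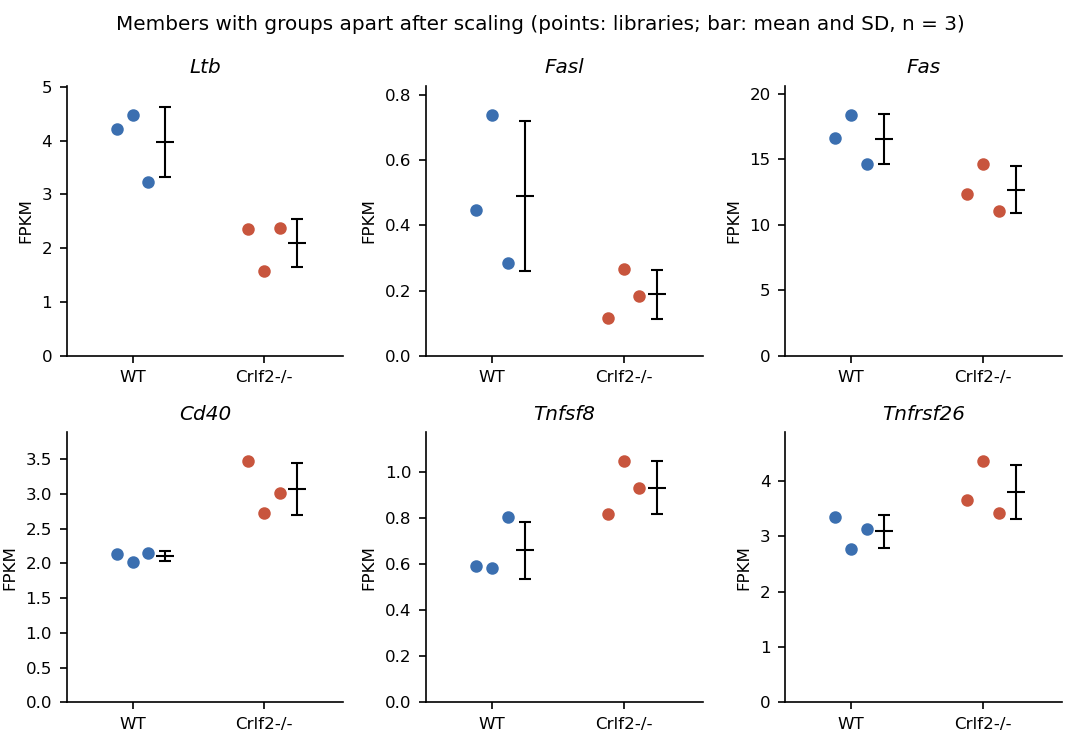
FPKM of the 6 members whose groups did not overlap after scaling, with a point per library (WT blue, *Crlf2*-/- red) and, beside the points, the mean and SD of 3 libraries. *Ltb*, *Fasl* and *Fas* are lower and *Cd40*, *Tnfsf8* and *Tnfrsf26* higher in *Crlf2*-/- hearts; for *Fas* the deposited FPKM shown here just touch, at 14.6 in both groups.

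The other costimulatory genes were low in both groups, as means ± SD over 3 libraries show. The 4-1BB ligand gene *Tnfsf9* averaged 1.25 ± 0.227 FPKM in WT and 1.48 ± 0.449 FPKM in *Crlf2*-/- hearts, and its receptor gene *Tnfrsf9* 0.587 ± 0.112 and 0.630 ± 0.213 FPKM. The OX40 ligand gene *Tnfsf4* averaged 0.620 ± 0.0284 and 0.637 ± 0.128 FPKM, and *Tnfrsf4*, which encodes OX40 on activated and regulatory T cells, 0.460 ± 0.127 and 0.437 ± 0.273 FPKM. For GITR, another T cell receptor of the family, *Tnfrsf18* averaged 0.625 ± 0.197 and 0.739 ± 0.341 FPKM, and the gene of its ligand, *Tnfsf18*, 0.132 ± 0.118 and 0.235 ± 0.130 FPKM. The groups of *Tnfrsf4* and *Tnfrsf18* overlapped, but these levels rest on few fragments, 4 to 21 and 13 to 35 per library. The 95% intervals of their log2 fold changes were wide, from -1.20 to 0.80 and from -0.69 to 1.01. Such values cannot show that the RNA of regulatory or activated T cells was unchanged. *Cd27*, a receptor of naive and memory T cells, averaged 0.399 ± 0.0649 and 0.259 ± 0.126 FPKM, with a log2 fold change of -0.54 and a 95% interval from -1.26 to 0.19. *Cd27* overlaps *Vamp1* and *Tnfrsf9* overlaps *Camta1* on the opposite strand, and whether strand was used in counting is not given in the sources used here. *Tnfrsf25*, which encodes DR3, averaged 1.502 ± 0.129 and 1.21 ± 0.497 FPKM, and *Tnfrsf8*, which encodes CD30, 0.197 ± 0.0622 and 0.237 ± 0.0721 FPKM. The ligand genes *Cd70* and *Tnfsf15* had at most 8 fragments in any library and were not tested.

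The TWEAK and Fn14 pair, which acts in tissue injury and fibroblast and muscle responses, was the most abundant ligand and one of the most abundant receptors. *Tnfsf12*, which encodes TWEAK, stood at 15.9, 13.3 and 11.4 FPKM in WT and at 11.2, 12.1 and 13.0 FPKM in *Crlf2*-/- hearts. The knockout values lay largely within the WT range, and the log2 fold change was -0.14 with a 95% interval from -0.46 to 0.18. *Tnfsf12* and its neighbour *Tnfsf13* share bases with the fusion gene *Tnfsfm13* and with the antisense gene *Tnfsf13os*, so their values are uncertain to that extent. *Tnfrsf12a*, which encodes Fn14, stood at 16.9, 22.0 and 14.6 FPKM in WT and at 11.4, 25.4 and 26.0 FPKM in *Crlf2*-/- hearts. *Crlf2*-/- replicate 1 held the lowest value of all and the other 2 knockout libraries the highest, so that the log2 fold change of 0.16 had a wide 95% interval, from -0.55 to 0.88. Without *Crlf2*-/- replicate 1 it was 0.55 (limma, unadjusted p = 0.0149, adjusted p = 0.532), and without *Crlf2*-/- replicate 3 it was -0.04.

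Of the RANK system, which controls osteoclasts and lymph node development, the soluble decoy *Tnfrsf11b* (osteoprotegerin) was the most abundant. It averaged 6.90 ± 1.22 FPKM in WT and 8.34 ± 1.34 FPKM in *Crlf2*-/- hearts (SD, n = 3 each). *Tnfrsf11a*, which encodes RANK, averaged 3.70 ± 0.562 and 3.30 ± 0.539 FPKM, and *Tnfsf11*, which encodes RANKL, 0.609 ± 0.404 and 0.807 ± 0.0934 FPKM. *Tnfsf11* stood at 1.07, 0.310 and 0.450 FPKM in WT and at 0.807, 0.901 and 0.714 FPKM in *Crlf2*-/- hearts, so that the overlap of the groups rests on WT replicate 1 alone. The log2 fold change was 0.50 with a 95% interval from -0.35 to 1.35, and without WT replicate 1 it was 0.94 (limma, unadjusted p = 0.00636, adjusted p = 0.461). No other fit gave *Tnfsf11* an unadjusted p under 0.05.

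The genes of the BAFF and APRIL system, which keeps B cells and plasma cells alive, gave no difference that passed the test. *Tnfsf13b* (BAFF) averaged 0.530 ± 0.00861 FPKM in WT and 0.534 ± 0.0900 FPKM in *Crlf2*-/- hearts, and *Tnfsf13* (APRIL) 0.779 ± 0.475 and 0.795 ± 0.236 FPKM (SD, n = 3 each). *Tnfrsf13b*, which encodes TACI, was the most abundant of their receptors at 4.14 ± 0.521 and 4.39 ± 0.608 FPKM. *Tnfrsf13c*, which encodes the BAFF receptor, had 2 to 11 fragments per library and *Tnfrsf17*, which encodes BCMA of plasma cells, 0 to 6, so neither was tested. The WT libraries held 1, 5 and 6 fragments of *Tnfrsf17* and the *Crlf2*-/- libraries 1, 2 and 0. Beside it, the summed level of 8 plasma cell markers was 219 to 380 FPKM in WT and 91.7 to 130 FPKM in *Crlf2*-/- hearts, with 4 of the 8 lower at an unadjusted p under 0.05, whereas 8 B cell markers gave overlapping sums of 5.70 to 8.01 and 5.01 to 9.51 FPKM. The largest part of the plasma cell sum in WT was *Igkc*, at 106 to 256 FPKM, against 12.3 to 40.7 FPKM in *Crlf2*-/- hearts. The groups of the abundant markers *Xbp1* and *Sdc1* overlapped.

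The receptors outside these classes also overlapped between the groups apart from *Tnfrsf26*. *Eda2r*, a receptor of ectodysplasin, averaged 3.21 ± 0.382 FPKM in WT and 3.18 ± 0.468 FPKM in *Crlf2*-/- hearts, and *Ngfr*, the low-affinity neurotrophin receptor, 0.606 ± 0.0268 and 0.548 ± 0.122 FPKM. *Tnfrsf19* (TROY) averaged 0.102 ± 0.0249 and 0.126 ± 0.0960 FPKM (SD, n = 3 each).

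Markers of several cell types moved with the group beside *Ltb* and *Fasl*. In bulk tissue, fewer cells of a type and less RNA per cell cannot be told apart. The summed level of 10 T cell markers was 16.1 to 24.5 FPKM in WT and 8.88 to 12.1 FPKM in *Crlf2*-/- hearts. Of these 10 genes, 9 had an unadjusted p under 0.05 and were lower in *Crlf2*-/- hearts, the exception being *Cd28*, and 0 were called after adjustment. None of the 10 was at 0 in all libraries. The list was chosen with earlier results of these data known, and the study had reported *Lck* and *Cd3e* as downregulated in the same hearts. The count of lower markers is therefore no independent result. *Ltb* amounted to 18.25 to 20.02% of that summed level in WT and to a wider 16.4 to 26.7% in *Crlf2*-/- hearts, with overlap. *Fasl* amounted to 1.76 to 3.01% and 0.966 to 2.74%, again with overlap. These ratios were chosen after the values had been seen, and were formed with the T cell list only. The largest part of its sum was *Trac*, at 6.75 to 9.67 FPKM in WT and 3.94 to 5.50 FPKM in *Crlf2*-/- hearts. The part that T cells play in the levels of *Ltb* and *Fasl* was not tested. The 6 NK cell markers summed to 6.60 to 6.68 FPKM in WT and 3.74 to 6.63 FPKM in *Crlf2*-/- hearts, and 4 of the 6 had a log2 fold change above 0, with a median of 0.13. Of these 6 genes, *Gzma*, which encodes granzyme A, made up most of the WT sum and was the one with an unadjusted p under 0.05, at 4.16 ± 0.161 FPKM in WT and 2.40 ± 0.315 FPKM in *Crlf2*-/- hearts (SD, n = 3 each), whereas the groups of *Eomes* lay apart in the other direction, at 0.278 ± 0.0577 and 0.437 ± 0.0944 FPKM.

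**Figure D4:**
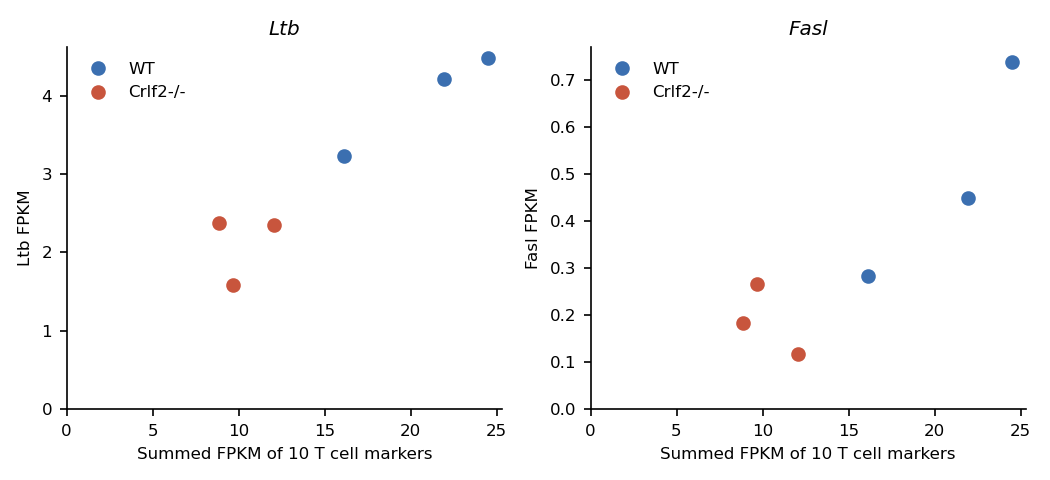
Level of *Ltb* (left) and *Fasl* (right) in FPKM against the summed FPKM of 10 T cell markers, with a point per library (WT blue, *Crlf2*-/- red). The WT libraries lie to the right, at 16.1 to 24.5 FPKM of the markers, and above the *Crlf2*-/- libraries, which lie at 8.88 to 12.1 FPKM.

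The marker lists of the cells that carry CD40 are given here beside *Cd40*. The 10 monocyte and macrophage markers summed to 1980 to 3575 FPKM in WT and 2291 to 2954 FPKM in *Crlf2*-/- hearts, and 2 of them, *Fcgr1* and *Ly6c2*, were higher in *Crlf2*-/- hearts at an unadjusted p under 0.05. Most of that sum was *Lyz2*, at 1313 to 2575 FPKM in WT and 1398 to 2126 FPKM in *Crlf2*-/- hearts. Of the 10 genes, 8 had a log2 fold change above 0 and 2 below, with a median of 0.10. The 7 dendritic cell markers summed to 8.97 to 13.0 FPKM in WT and 5.63 to 9.17 FPKM in *Crlf2*-/- hearts, and 3 of them (*Zbtb46*, *Cd209a* and *Ccr7*) were lower. The B cell sums overlapped, as given above. Summed red blood cell markers stood at 84.9 to 162 FPKM in *Crlf2*-/- hearts against 226 to 370 FPKM in WT. All 5 tested genes of that list were lower at an unadjusted p under 0.05. All 10 cardiomyocyte markers had a log2 fold change below 0, with a median of -0.72, and 4 of them were lower at an unadjusted p under 0.05. Of fibroblast and endothelial markers 1 of 8 each was lower, and of the tested regulatory T cell and neutrophil markers (2 and 6) 0 had an unadjusted p under 0.05. The regulatory T cell genes *Foxp3* and *Ctla4* fell below the filter, with library totals adding up to 21 and 10. *Ctla4* was found in every WT library but in no knockout library, whereas *Foxp3* overlapped between the groups. This list therefore cannot show whether regulatory T cell RNA was unchanged. The part that these lists play in the values of *Fas*, *Cd40* and the other members was not tested.

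The signalling genes downstream of the receptors gave 0 calls as well. The 4 lists held 55 genes, 53 of which passed the filter: 20 adaptors and kinases, 5 NF-kB subunits, 12 inhibitors and 16 of 18 NF-kB target genes. The targets *Ccl20* and *Csf2* were the genes not tested. At an unadjusted p under 0.05, 2 of the 53 were higher in *Crlf2*-/- hearts and 2 lower, beside 3.22% and 3.36% of all genes. The median log2 fold change was 0.04 for adaptors and kinases, -0.01 for NF-kB subunits, -0.05 for inhibitors and 0.16 for target genes. The most abundant gene of each list hardly differed or had an interval that included 0: *Tab2*, an adaptor of the kinase TAK1, averaged 22.2 FPKM over all libraries (log2 fold change 0.05), the subunit gene *Rela* 28.2 FPKM (-0.01), *Nfkbia*, the inhibitor and rapid target of NF-kB, 28.6 FPKM (0.02), and the target gene *Ier3* 28.8 FPKM (0.32, 95% interval from -0.15 to 0.80).

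The largest differences of these lists were in *Ptgs2* and *Mlkl*. *Mlkl*, which encodes the executioner of necroptosis, stood at 8.05, 6.57 and 6.32 FPKM in WT and at 10.3, 11.4 and 10.5 FPKM in *Crlf2*-/- hearts. The groups were clearly apart, with a log2 fold change of 0.62 and a standard error of 0.12 (limma, unadjusted p = 0.000897, adjusted p = 0.202). *Ptgs2*, which encodes the inducible cyclooxygenase COX-2, stood at 2.10, 2.44 and 1.80 FPKM in WT and at 4.15, 4.48 and 2.69 FPKM in *Crlf2*-/- hearts. Here the groups did not overlap either, and the log2 fold change was 0.79 with a standard error of 0.21 (limma, adjusted p = 0.357). In the other direction, *Sod2*, the gene of the mitochondrial superoxide dismutase, stood at 5.68, 6.47 and 5.72 FPKM in WT and at 3.93, 4.31 and 4.96 FPKM in *Crlf2*-/- hearts (log2 fold change -0.43, limma adjusted p = 0.434). *Birc2*, which encodes the ubiquitin ligase cIAP1 of the TNF receptor complex, stood at 9.17, 7.77 and 8.57 FPKM in WT and at 7.97, 6.54 and 5.93 FPKM in *Crlf2*-/- hearts (log2 fold change -0.32, limma adjusted p = 0.753), with overlapping groups. The NF-kB targets *Ptgs2* and *Sod2* thus lay on opposite sides.

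**Figure D5:**
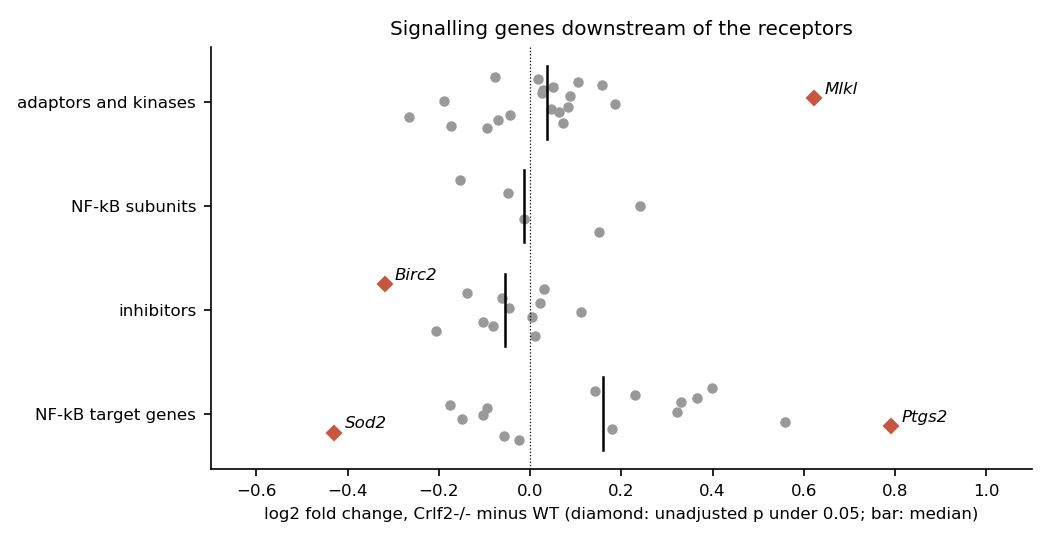
log2 fold change (*Crlf2*-/- minus WT) of the 53 tested signalling genes in 4 lists, with red diamonds for an unadjusted p under 0.05 and a black bar at the median of each list. *Mlkl* and *Ptgs2* lie farthest to the right, at 0.62 and 0.79, and *Sod2* and *Birc2* farthest to the left, at -0.43 and -0.32.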

How the data were processed

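RNA from the hearts of 3 WT and 3 *Crlf2*-/- mice was sequenced on day 7 post-MI, and groups and replicate numbers follow the sample labels. The extraction text of the labels speaks of another tissue, whereas the tissue label and the study's methods say heart, which was followed. Reads were trimmed, aligned with HISAT2 2.0.5 and counted with featureCounts by the authors, who deposited FPKM per gene and library beside gene length. The submitters' processing notes name the builds mm10 and hg38, and 42 of 43 member positions equal those of GENCODE M21 (GRCm38).

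Multiplied by gene length and by a library total worked out from the low values (21668004 to 23328473 fragments), the deposited FPKM gave whole fragments for 100% of nonzero values (tolerance 0.05). FPKM were scaled by trimmed means of M values (factors 0.9895 to 1.0137), and log2(FPKM + 0.1) of 15520 genes was tested with limma 3.58.1 in R 4.3.3 (eBayes with trend and robust). Total fragments per library differed little, and low genes are limited by counting error. Members with an unadjusted p under 0.05 or groups apart, the 4 ligands and 4 receptors of highest mean, and partners were given in every library. Members, pathway lists and marker lists were chosen with earlier results of these data known. Other scalings, filters and pseudocounts, voom, a replicate block, leaving out each library, and leaving out haemoglobin and mitochondrial genes were tried. The table held 0 columns of other samples. Samples with the same replicate number had correlations of their deviations of -0.016, 0.115 and 0.12, so numbers were not taken to pair mice.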

Additional observations from a re-analysis of the deposited data

How the results depend on the processing

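No member and no signalling gene was called under any of the alternatives, and *Ltb* and *Cd40* kept an unadjusted p under 0.05 and their direction in all of them. Members higher at an unadjusted p under 0.05 numbered 2 when each library had to hold 10 fragments and 2 with a pseudocount of 1 (*Tnfsf8* joined *Cd40* in both), and 1 to 2 when a library was left out. *Tnfsf11* reached such a p only without WT replicate 1, *Tnfrsf12a* only without *Crlf2*-/- replicate 1 and *Tnfrsf23* only without *Crlf2*-/- replicate 3. Lower members numbered 2 when each library had to hold 10 fragments, since *Fasl* was then not tested. When a library was left out, lower members numbered 1 to 3, with 1 without WT replicate 2. Members with groups apart then numbered 3 to 6 higher and 3 to 5 lower. The shares over all genes given above, 5.37% and 6.37%, hold for all 6 libraries and not for these fits. These counts are therefore no result about the members. Lower signalling genes numbered 1 with no filter and 1 to 2, and higher ones 2 to 5 (5 without WT replicate 1), when a library was left out. Calls over all genes numbered 6 with no filter, 1 with at least 10 fragments in every library, and 1 to 14 when a library was left out (14 without *Crlf2*-/- replicate 1). With the replicate number as a block, that is as pairing, there were 4 calls over all genes and 0 over the members, and the same 4 members had an unadjusted p under 0.05. When a library was left out, the receptor median ran from -0.0172 (without WT replicate 1) to 0.056 and the ligand median from -0.0609 (without *Crlf2*-/- replicate 1) to 0.0525, so that both turned sign; under the other alternatives they stayed above 0, at 0.0411 to 0.0706 and 0.0131 to 0.024. The log2 fold change turned sign when a library was left out for *Ltbr* (-0.0238 to 0.155), *Tnf* (-0.0884 to 0.088), *Tnfrsf12a* (-0.0379 to 0.549), *Tnfrsf1a* (-0.152 to 0.0112) and *Tnfsf10* (-0.035 to 0.104). The cause of these shifts was not tested. Over the 18 genes followed singly, 262 of 269 comparisons with an alternative kept direction and side of the calling threshold, and 7 turned sign. None of the 18 was called in any fit, so this count follows the sign only. It leaves out an unadjusted p that crossed 0.05, as for *Fas*, *Fasl* and *Tnfsf8*. voom gave no separate count of groups apart, since it rests on the same scaled values.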
